A study of Mus musculus with 4 samples.

Results

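β-catenin, the proteins that mark it for destruction and the factors it works with on DNA were followed by their mRNA in intestinal stem cells with and without CREPT. The 10 genes were taken by symbol: Ctnnb1, Apc, Axin1, Gsk3b, Tcf7l2, Tcf7, Lef1, Bcl9, Bcl9l and Pygo2. All 10 were found among 18436 genes in the table, and 9 of them passed the filter of a mean of at least 0.5 FPKM, as did 12621 genes in all. FPKM scales the fragments of a gene by its transcript length and by the mapped fragments of the library, so levels can be set side by side between genes. CREPT, encoded by Rprd1b, is a protein that binds the tail of RNA polymerase II.

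RNA was extracted from Lgr5-GFPhigh cells sorted from crypts of 2 Lgr5-CREPTWT and 2 Lgr5-CREPTKO mice, all C57BL/6. Controls carried Lgr5-GFP-CreERT2, and the Lgr5-CREPTKO mice carried Lgr5-GFP with CREPT fl/fl, so that Cre was driven from the Lgr5 locus in both genotypes. Both genotypes received tamoxifen intraperitoneally at 1 mg per day for 5 days, and cells were sorted on day 7. By the study's methods, mice were 6 to 8 weeks old and of both sexes, and the sex of these 4 is not given. Every mouse, control or not, therefore had Cre, GFP and tamoxifen, and the deletion could reach only cells with an active Lgr5 locus and their descendants.

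In the absence of a Wnt signal, Apc and Axin1 hold β-catenin while casein kinase 1 and Gsk3b phosphorylate it, after which it is ubiquitinated and degraded. Wnt binding to Frizzled and Lrp5 or Lrp6 stops this, and β-catenin enters the nucleus and binds TCF/LEF factors on DNA, with Bcl9 or Bcl9l and a Pygopus protein joining it. In the intestinal crypt this pathway maintains the Lgr5+ stem cells, and loss of Apc is the classical first step of intestinal tumours. Much of this control acts on protein stability and location, which mRNA levels do not measure.

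Sequences around an annotated transcript start of the 3 TCF/LEF genes are printed because their mRNAs stood on different sides of the genotype comparison. They are from RefSeq, GRCm38.p6, 5′ to 3′ on the strand of the gene, from 250 bases before an annotated transcript start to 50 bases after it. Capitals mark CTTTG on either strand, the core of the TCF/LEF recognition word. The Tcf7l2 window is chr19:55741560-55741859, plus strand, the Lef1 window is chr3:131110047-131110346, plus strand, and the Tcf7 window is chr11:52282965-52283264, minus strand. The Tcf7 start and its whole window lie inside the gene, downstream of its outermost RefSeq start. Unlike the Tcf7l2 and Lef1 windows, the Tcf7 window therefore holds no sequence from before the gene.
Tcf7l2: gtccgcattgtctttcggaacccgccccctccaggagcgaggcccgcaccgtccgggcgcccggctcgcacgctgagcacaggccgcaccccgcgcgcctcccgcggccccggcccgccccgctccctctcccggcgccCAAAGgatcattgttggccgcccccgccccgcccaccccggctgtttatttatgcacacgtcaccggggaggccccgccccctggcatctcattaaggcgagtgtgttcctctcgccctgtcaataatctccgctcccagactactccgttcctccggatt
Lef1: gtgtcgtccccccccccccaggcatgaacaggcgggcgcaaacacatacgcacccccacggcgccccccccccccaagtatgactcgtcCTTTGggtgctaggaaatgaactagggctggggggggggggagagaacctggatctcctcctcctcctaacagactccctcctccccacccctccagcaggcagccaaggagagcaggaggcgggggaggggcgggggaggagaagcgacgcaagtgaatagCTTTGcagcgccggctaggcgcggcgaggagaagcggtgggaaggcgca
Tcf7: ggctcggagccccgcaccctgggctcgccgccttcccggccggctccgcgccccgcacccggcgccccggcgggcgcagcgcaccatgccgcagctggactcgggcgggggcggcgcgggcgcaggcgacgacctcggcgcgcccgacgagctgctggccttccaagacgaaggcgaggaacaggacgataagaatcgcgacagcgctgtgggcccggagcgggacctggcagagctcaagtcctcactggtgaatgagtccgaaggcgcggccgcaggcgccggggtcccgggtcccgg

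Tcf7l2 held 1 match, 111 bases before the start (offset -111). Lef1 held 2, at -161 and at 1, and the Tcf7 window, which lies wholly inside its gene, held 0. Windows were found for 7 of the 10 genes, 15 windows in all, and 8 of the 15 held CTTTG. Some windows of the same gene overlap, and by gene 4 of the 7 had CTTTG in a window. Of 32851 windows in the RefSeq table, 53.9% held CTTTG, so that these windows were close to the general share. The longer word ATCAAAG, whose reverse strand contains CTTTG, was in 0 of the 15 windows and in 3.73% of all windows. A match of letters is a description, not a site.

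As a check of the genotype, Rprd1b was at 17.69 and 18.09 FPKM in Lgr5-CREPTWT cells and at 6.65 and 7.36 in Lgr5-CREPTKO cells. It fell by 1.29 on the log2 scale (SE 0.0946, limma adjusted p = 0.0280), and every Lgr5-CREPTKO value was below every control value. FPKM covers the whole gene, while only a loxP-flanked exon was removed. Stem cell markers were high in every mouse: Lgr5 was 37.70 to 60.10 and Olfm4 was 4931.99 to 5350.90 FPKM in the 4 mice. Stromal and endothelial markers were below 1 FPKM in every mouse for 8 of 8 genes (highest value 0.28). Lymphocyte markers were present and uneven, with 13 genes summing to 21.5 and 36.1 FPKM in control mice and to 7.19 and 64.0 in Lgr5-CREPTKO mice. Enteroendocrine markers summed to 181 and 207 against 55.1 and 67.1 FPKM. Of 11 tested, 6 were called lower (limma adjusted p below 0.05), 0 were called higher and 11 were lower without overlap. Goblet markers summed to 1473 and 2457 against 809 and 941 FPKM. Of 8 tested, 1 was called lower, 0 were called higher and 7 were lower without overlap. Tuft markers summed to 29.5 and 60.5 against 25.6 and 9.03 FPKM, with 0 of 7 called and 6 of 7 lower without overlap. Over all genes tested, 2.67% were called lower and 31% were lower without overlap. In RNA from sorted bulk cells, fewer cells of a type and less RNA per cell cannot be told apart. The table holds no counts. FPKM summed to 468830 to 499327 per mouse, and the value of 1 read, judged from short genes, differed by at most a factor of 1.03 from that of the first control mouse.

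None of the 9 tested genes passed an adjusted p of 0.05 between genotypes (limma on log2(FPKM + 0.5), Benjamini-Hochberg over all genes). Over all genes tested 3.08% passed, 2.67% lower and 0.412% higher, and 1.14% also had an absolute log2 fold change above 1, so that 0 of 9 is close to the background. At an unadjusted p below 0.05, 1 of the 9 was higher (Apc) and 0 were lower, against 9.27% and 15.2% of all genes. In 5 of 9 genes both Lgr5-CREPTKO values were above both control values (25.6% of all genes) and in 2 of 9 both were below (31% of all genes). The median log2 fold change of the 9 was 0.15, with 7 above 0 and 2 below, beside -0.01 over all genes.

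**Figure D1:**
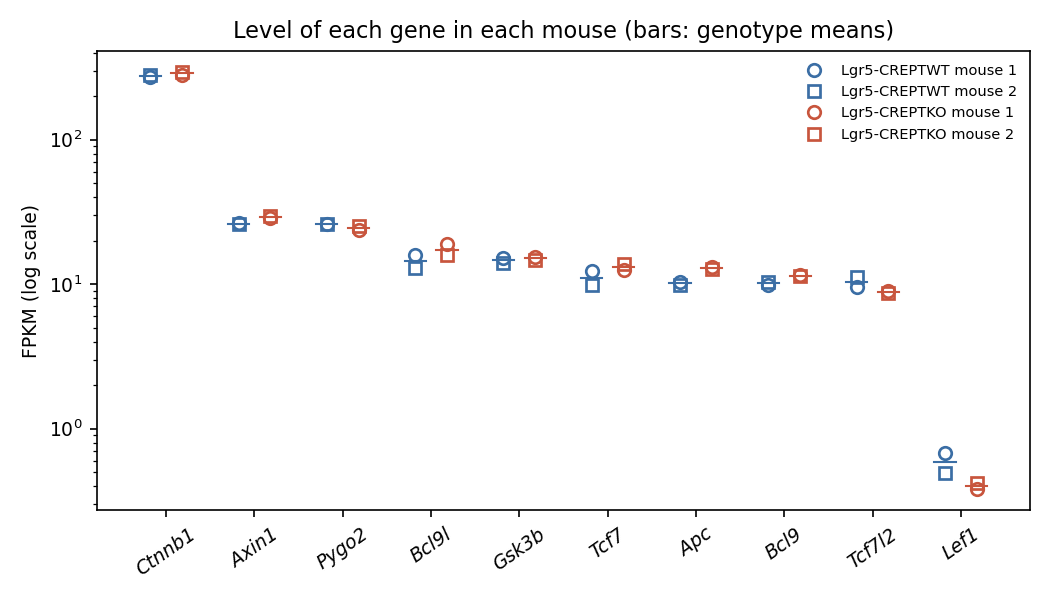
FPKM on a log axis for each of the 10 genes, with circles and squares for mice 1 and 2 of each genotype and short bars for genotype means. Ctnnb1 sits near 280 FPKM in all mice, 8 genes lie between 8.61 and 29.47, and Lef1 is below 1 throughout.

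Ctnnb1 was by far the most abundant of the 10, above 98.8% of genes in the table by its mean. Axin1 and Pygo2 followed with ranges over the 4 mice that overlapped, then Bcl9l and Gsk3b, which overlapped too. Tcf7, Apc, Bcl9 and Tcf7l2 came next, each overlapping its neighbour in the order. Lef1 stood apart at the bottom, and every mouse had it below the other 9 genes. The plot of levels by mouse shows this order.

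Ctnnb1 encodes β-catenin (chr9:120933400-120960507, plus strand). It was at 272.69 and 279.10 FPKM in Lgr5-CREPTWT cells, 276 ± 4.53 (SD, n = 2), and at 280.27 and 295.10 in Lgr5-CREPTKO cells, 288 ± 10.5 (SD, n = 2). The Lgr5-CREPTKO values were just above the control values. The log2 fold change was 0.06 (SE 0.0693), with a 95% interval from -0.12 to 0.24, and limma's adjusted p was 0.645. In percent, that interval runs from -7.88 to 17.9 for the values as deposited. The size of the Ctnnb1 value depended on the scaling: it was 0.14 rescaled to the same sum (limma adjusted p = 0.266), 0.19 after quantile normalization (limma adjusted p = 0.156) and 0.10 with the length correction (95% interval -0.09 to 0.29).

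Of the destruction complex, Apc, the large scaffold that is mutated in most colorectal tumours (chr18:34220297-34322190, plus strand), differed most in the values as deposited. It was at 10.39 and 9.89 FPKM in Lgr5-CREPTWT cells and at 13.12 and 12.64 in Lgr5-CREPTKO cells. Both Lgr5-CREPTKO mice were well above both controls, with little spread within a genotype. The log2 fold change was 0.33 (SE 0.0875, 95% interval 0.11 to 0.56) with an unadjusted p of 0.0129 and a limma adjusted p of 0.109. Across the alternatives the adjusted p ran from 0.0770 to 0.565, so that Apc was never called. After correction for transcript length, described further on, the log2 fold change of Apc was 0.09 (95% interval -0.12 to 0.30), smaller in size than those of Axin1, 0.18, and Gsk3b, -0.11.

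Axin1, the scaffold that limits assembly of the complex (chr17:26131217-26195811, plus strand), was at 26.26 and 26.04 FPKM in control cells and at 28.77 and 29.47 in Lgr5-CREPTKO cells. The genotypes did not overlap, and the difference was small: a log2 fold change of 0.15 (SE 0.0709, 95% interval -0.03 to 0.33, limma adjusted p = 0.264). Gsk3b, the kinase that phosphorylates β-catenin for degradation (chr16:38089001-38246084, plus strand), was at 15.26 and 13.99 FPKM in control cells and at 15.45 and 14.63 in Lgr5-CREPTKO cells. These ranges overlapped, with a log2 fold change of 0.04 (95% interval -0.19 to 0.27, limma adjusted p = 0.830), and its sign turned in 2 alternatives.

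Ratios to Ctnnb1 set Axin1, Apc and Gsk3b beside β-catenin mRNA, with Axin2 left out. The ratio of Ctnnb1 to Axin1 FPKM was 10.4 and 10.7 in control mice and 9.74 and 10.01 in Lgr5-CREPTKO mice. The ratio of Ctnnb1 to Apc was 26.2 and 28.2 against 21.4 and 23.3. Both ratios were lower in both Lgr5-CREPTKO mice, without overlap, and a change of a library's sum leaves them as they are. Other processing does not: after quantile normalization the log2 fold change was 0.19 for both Ctnnb1 and Axin1, and after the length correction it was 0.10 for Ctnnb1 and 0.09 for Apc, so that each difference in ratio was gone in that setting. For Gsk3b the ratio was 17.9 and 20.0 against 18.1 and 20.2, with the genotypes interleaved. Outside the complex, the ratio of Ctnnb1 to Bcl9 was also lower without overlap in Lgr5-CREPTKO mice. The ratios to Tcf7l2, Lef1 and Pygo2 were higher without overlap, and those to Tcf7 and Bcl9l overlapped. With so few mice, the smallest exact permutation p for such a separation is 0.333.

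**Figure D2:**
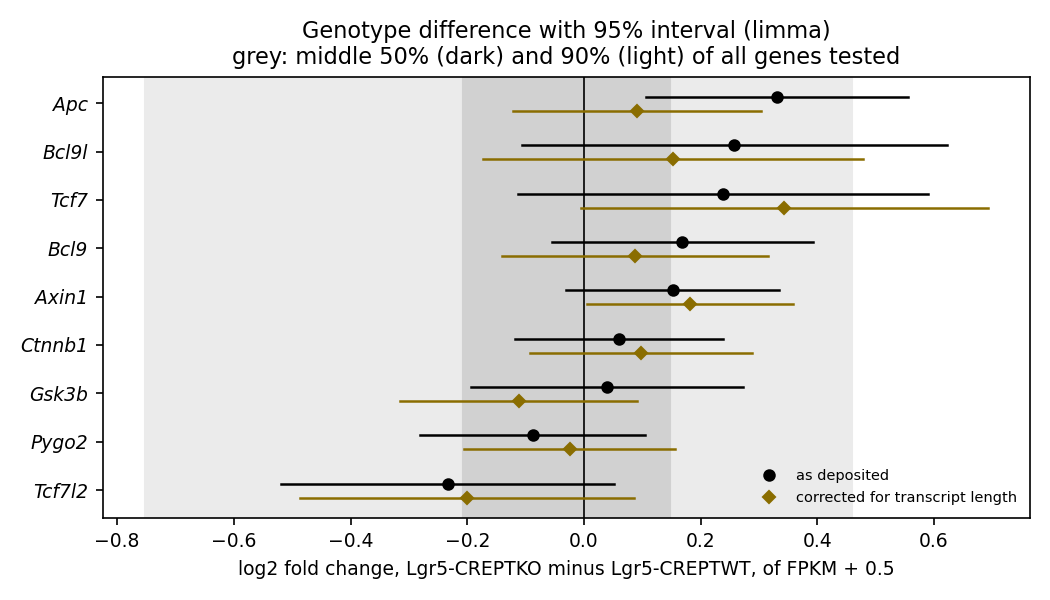
Log2 fold change of FPKM + 0.5, Lgr5-CREPTKO minus Lgr5-CREPTWT, for the 9 tested genes, as deposited (circles) and after correction for transcript length (diamonds), with 95% limma intervals. As deposited, only the interval of Apc lies clear of 0, and after the correction the Apc value moves from 0.33 to 0.09.

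Among the TCF/LEF factors, which bind DNA and recruit β-catenin, Tcf7l2 is the main family member of the adult intestinal epithelium (chr19:55741797-55933659, plus strand). It was at 9.62 and 11.22 FPKM in Lgr5-CREPTWT cells and at 8.92 and 8.61 in Lgr5-CREPTKO cells. Both Lgr5-CREPTKO values were below both control values, and the control mice differed from each other by more than the nearest mice of the 2 genotypes did. The log2 fold change was -0.23 (SE 0.111, 95% interval -0.52 to 0.05, limma adjusted p = 0.273). RefSeq lists 55 transcripts of Tcf7l2, and the table has 1 value for them all, so the balance of isoforms was not analysed here.

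Tcf7, which encodes TCF1 (chr11:52246527-52283383, minus strand), was at 12.37 and 9.84 FPKM in Lgr5-CREPTWT cells and at 12.47 and 13.77 in Lgr5-CREPTKO cells. The first control mouse and the first Lgr5-CREPTKO mouse were almost level. The log2 fold change was 0.24 (SE 0.137, 95% interval -0.11 to 0.59, limma adjusted p = 0.352). By whole gene spans, introns included, Tcf7 shares 332 bases with its neighbour Skp1a. Strand use in the authors' quantification is not given in the sources used here, and how reads there were assigned was not tested. Apc, Gsk3b and Bcl9l likewise overlap Gm10548 by 1476 bases, BC031361 by 260 and Cxcr5 by 120.

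Lef1 (chr3:131110297-131224357, plus strand) was at 0.68 and 0.49 FPKM in Lgr5-CREPTWT cells and at 0.38 and 0.42 in Lgr5-CREPTKO cells. Both Lgr5-CREPTKO values were below the control values at a level below 1 FPKM. Its mean of 0.49 FPKM kept it out of the main fit. Without the filter, its log2 fold change was -0.26 (95% interval -0.65 to 0.12, limma adjusted p = 0.383).

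The second control mouse had the lowest Tcf7 and the highest Tcf7l2, and the size of both differences depended on which control mouse was kept. Without the second control mouse the log2 fold change was 0.08 for Tcf7 and -0.13 for Tcf7l2. Without the first control mouse it was 0.40 for Tcf7 and -0.34 for Tcf7l2. With 2 control mice, neither can be called the odd one. T cells also express Tcf7 and Lef1. The Lgr5-CREPTKO mouse with the highest lymphocyte marker sum, 64.0 FPKM, had the highest Tcf7, 13.77, and a Lef1 of 0.42. The one with the lowest sum, 7.19 FPKM, had a Tcf7 of 12.47, almost level with the first control mouse, and the lowest Lef1, 0.38. Between the control mice the order was the other way. The second had the higher lymphocyte sum, 36.1 against 21.5 FPKM, with the lower Tcf7, 9.84 against 12.37, and the lower Lef1, 0.49 against 0.68. Gzma was the largest part of the lymphocyte sum in every mouse. It was at 10.33 and 20.98 FPKM in control mice and at 2.09 and 35.14 in Lgr5-CREPTKO mice, so the sum is not a count of T cells. The part of lymphocytes in the Tcf7 and Lef1 values was not tested. The second control mouse had the highest goblet, enteroendocrine and tuft sums and the highest Tcf7l2, and the part of those cells in the Tcf7l2 value was not tested.

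The TCF/LEF genes were also taken as shares of their sum within each mouse. Tcf7, Tcf7l2, Lef1 and Tcf7l1 together came to 22.9 and 21.7 FPKM in control mice and to 21.9 and 22.9 in Lgr5-CREPTKO mice. Tcf7 held 54.0% and 45.3% of this in control mice and 57.0% and 60.2% in Lgr5-CREPTKO mice, a difference of 9.001 percentage points. Tcf7l2 held 42.0% and 51.6% in control mice and 40.8% and 37.7% in Lgr5-CREPTKO mice, a difference of -7.57 percentage points. Tcf7 thus outweighed Tcf7l2 in 3 of 4 mice, the exception being the second control mouse. Neither share overlapped between genotypes, and the exact two-sided permutation p was 0.333 for each, the smallest that 2 mice against 2 can give. Tcf7 and Tcf7l2 hold almost all of the sum, so their shares mirror each other and give a single result. Without the second control mouse the Tcf7l2 difference was -2.77 percentage points, and without the first it was -12.4. Lef1 held 2.97% and 2.25% against 1.74% and 1.84%, and Tcf7l1, at 0.06 to 0.23 FPKM, held at most 1.004%.

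**Figure D3:**
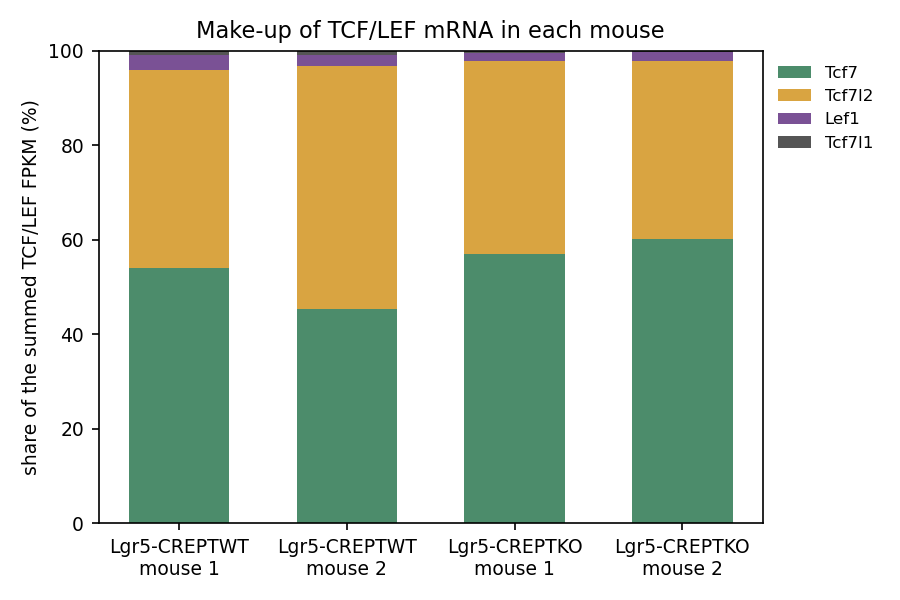
Share of the summed TCF/LEF FPKM held by Tcf7, Tcf7l2, Lef1 and Tcf7l1 in each of the 4 mice, in percent. Tcf7 takes 57.0% and 60.2% in the Lgr5-CREPTKO mice and 54.0% and 45.3% in the control mice.

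Bcl9 and Bcl9l are adaptors that link β-catenin to Pygopus proteins, whose PHD finger reads histone H3 methylation. Bcl9 (chr3:97203658-97298402, minus strand) was at 9.89 and 10.37 FPKM in Lgr5-CREPTWT cells and at 11.50 and 11.39 in Lgr5-CREPTKO cells. The genotypes did not overlap, with a log2 fold change of 0.17 (95% interval -0.06 to 0.39, limma adjusted p = 0.305). Bcl9l (chr9:44482738-44511906, plus strand) was at 15.86 and 12.99 FPKM in control cells and at 18.87 and 15.79 in Lgr5-CREPTKO cells. Its mice varied widely within each genotype, so that the ranges overlapped despite a log2 fold change of 0.26 (SE 0.141, 95% interval -0.11 to 0.62, limma adjusted p = 0.331). Leaving out 1 mouse moved the Bcl9l value to 0.12 (without control mouse 2), 0.13 (without Lgr5-CREPTKO mouse 1), 0.38 (without Lgr5-CREPTKO mouse 2) and 0.40 (without control mouse 1). Pygo2 (chr3:89430114-89435131, plus strand) was at 25.92 and 26.13 FPKM in control cells and at 23.82 and 25.12 in Lgr5-CREPTKO cells. It was lower without overlap, by little, with a log2 fold change of -0.09 (95% interval -0.28 to 0.10, limma adjusted p = 0.521). The ratio of Ctnnb1 to Pygo2 FPKM was 10.5 and 10.7 in control mice and 11.8 and 11.7 in Lgr5-CREPTKO mice.

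Where a gene had a paralogue, the pair was compared as a share of its sum. Axin2, a Wnt target that can replace Axin1 in the complex, was at 111.37 and 101.57 FPKM in Lgr5-CREPTWT cells and at 141.08 and 146.00 in Lgr5-CREPTKO cells. The genotypes were far apart, with a log2 fold change of 0.43 (SE 0.0771) and a limma adjusted p of 0.0601, which ran from 0.0475 to 0.306 over 14 alternatives and was below 0.05 in 2 of them. Axin1 accordingly made up 19.1% and 20.4% of the Axin sum in control mice and 16.9% and 16.8% in Lgr5-CREPTKO mice (exact permutation p = 0.333). Gsk3b held 23.2% and 20.3% of the Gsk3 sum against 22.3% and 21.5%, and Gsk3a was at 50.62 to 54.94 FPKM. Bcl9 held 38.4% and 44.4% of the Bcl9 sum against 37.9% and 41.9%. Both of these shares overlapped between genotypes. Apc2, at 0.03 to 0.06 FPKM, added next to nothing to Apc, and Pygo1 has no row. Jup, which encodes plakoglobin, the closest relative of β-catenin, was at 56.12 and 57.47 FPKM against 66.89 and 65.63, a log2 fold change of 0.22 (limma adjusted p = 0.133).

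Differences across all genes moved with transcript length, and 4 of the 9 tested genes are long. Genes were put in 5 equal classes by their longest transcript in GENCODE vM21. The median log2 fold change was -0.17 in the class of shortest transcripts, -0.08, -0.03 and 0.03 in the next classes, and 0.12 in the class of longest, 5041 bases or more. Spearman's rho between log2 fold change and length was 0.349 across 12185 genes, which share the same 4 libraries. In the longest class 48.6% of genes were higher without overlap and in the shortest 9.23%. Apc (12811 bases), Gsk3b (8303), Bcl9l (6771) and Bcl9 (6102) fall in class 5, Axin1 and Tcf7l2 in class 4, Ctnnb1 and Pygo2 in class 3 and Tcf7 in class 2, counted from the shortest. The part of transcript length in the value of any one gene was not tested beyond the correction that follows.

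**Figure D4:**
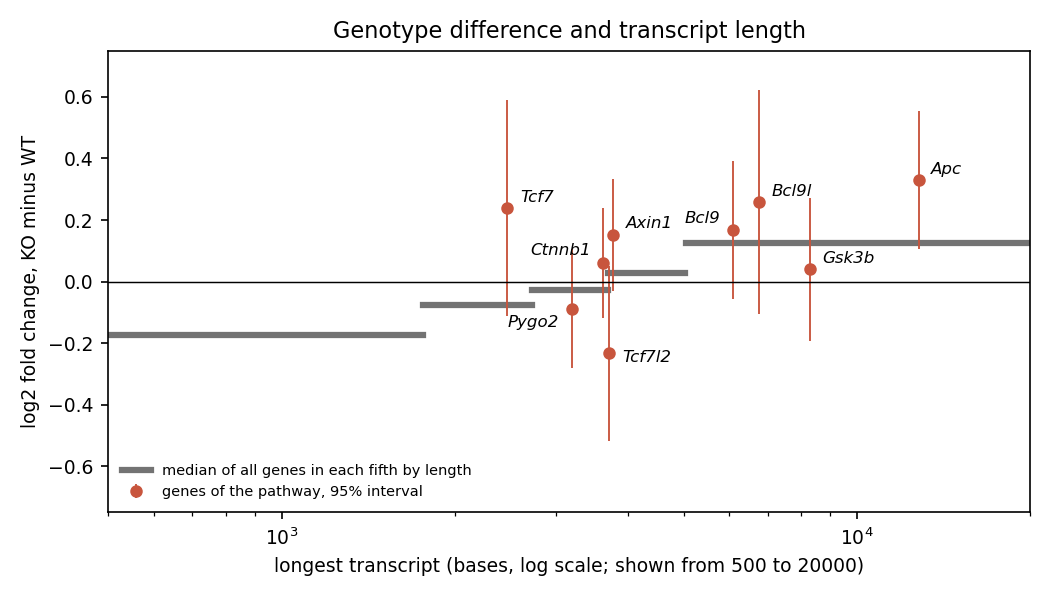
Log2 fold change against the length in bases of the longest GENCODE transcript, on a log axis, for the 9 tested genes with 95% limma intervals. Horizontal bars give the median of all genes in each of the 5 length classes, from -0.17 to 0.12, with the end classes cut at the axis limits, and the 4 genes of the longest class all lie above 0.

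When a smooth trend in length was removed from each library, the median of the 9 genes went from 0.15 to 0.09, beside 0.03 for all genes, with 6 above 0 and 3 below. Axin1 kept its size at 0.18 (95% interval 0.0050 to 0.36, limma adjusted p = 0.225), and was then the only one of the 9 whose interval lay clear of 0. Tcf7 was at 0.34 (limma adjusted p = 0.237) and Tcf7l2 at -0.20 (limma adjusted p = 0.361), so the 2 main TCF genes stayed on their sides of 0. Bcl9 was at 0.09, Bcl9l at 0.15, Pygo2 at -0.02 and Gsk3b at -0.11. None was called.

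The rest of the pathway was read from 5 lists. Over 96 genes tested in these lists and among the paralogues, each counted once, 1 was called lower and 0 were called higher. Over all genes tested, 2.67% were called lower and 0.412% higher. The median log2 fold change of the 96 was 0.12, beside -0.01 over all genes. The counts of genes without overlap given for each list are to be read against 25.6% higher and 31% lower over all genes tested. These medians and counts are as deposited, without the length correction, and the part of transcript length in them was not tested. The plot of the pathway by list shows most points above 0 and inside the middle 90% of all genes, from -0.75 to 0.46.

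**Figure D5:**
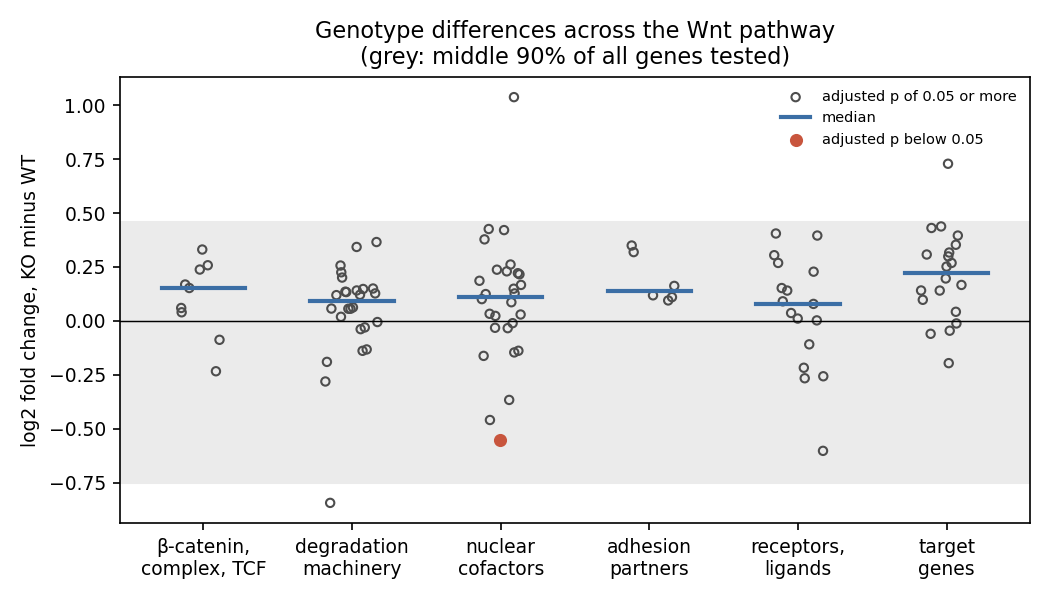
Log2 fold change, Lgr5-CREPTKO minus Lgr5-CREPTWT, of each tested gene in the 10-gene set and in 5 lists of the Wnt pathway, with medians as bars and the middle 90% of all genes in grey. The 1 filled point, Hdac2 at -0.55, is the only gene with an adjusted p below 0.05.

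In the degradation machinery (kinases, E3 ligase subunits, tankyrases, Dishevelled), 0 of 26 tested genes were called, 14 were higher and 4 lower without overlap, and the median was 0.09. Frat1, which binds Gsk3 and keeps it from Axin, was at 15.84 and 22.35 FPKM in control mice and at 9.61 and 10.97 in Lgr5-CREPTKO mice (log2 fold change -0.84, limma adjusted p = 0.0770). Amer1, which tethers Apc to the membrane, had a log2 fold change of 0.37 (limma adjusted p = 0.262). Tnks, a tankyrase that marks Axin for degradation, had one of 0.34 (limma adjusted p = 0.192).

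Among nuclear cofactors, 1 of 28 tested genes was called lower and 0 were called higher, beside 2.67% and 0.412% of all genes tested. Without overlap, 15 were higher and 6 lower, and the median was 0.11. The called gene was Hdac2, a histone deacetylase found in corepressor complexes, at 63.79 and 58.96 FPKM against 41.57 and 41.79. Its log2 fold change was -0.55 (SE 0.0744, limma adjusted p = 0.0384), and it was below 0.05 in 4 of 14 alternatives, with adjusted p from 0.0284 to 0.295. Hipk2, a nuclear kinase that phosphorylates TCF factors, was at 8.86 and 6.48 FPKM against 17.48 and 14.80 (log2 fold change 1.04, limma adjusted p = 0.0558). Tle2, a Groucho corepressor, was at 0.70 and 0.65 FPKM against 0.23 and 0.50 (log2 fold change -0.46, limma adjusted p = 0.385).

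At the cell membrane, where β-catenin binds cadherins, 0 of 6 adhesion partners were called, 5 were higher and 0 lower without overlap, and the median was 0.14. Ctnnd1, which encodes p120-catenin, was at 91.39 and 91.62 FPKM against 110.37 and 118.28 (log2 fold change 0.32, limma adjusted p = 0.0806). Vcl, vinculin, had a log2 fold change of 0.35 (limma adjusted p = 0.135) and Cdh17, an intestinal cadherin, one of 0.16 (limma adjusted p = 0.208).

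Of receptors and ligands, 0 of 17 tested genes were called, 7 were higher and 3 lower without overlap, and the median was 0.08. Lrp5, a Wnt coreceptor, was at 31.73 and 31.25 FPKM against 43.80 and 40.00 (log2 fold change 0.41, limma adjusted p = 0.0673). Lgr5, the R-spondin receptor used for the sort, had a log2 fold change of 0.40 (limma adjusted p = 0.176). Wnt3, a Paneth cell ligand, was at 1.62 and 2.27 FPKM against 1.21 and 0.99 (log2 fold change -0.60, limma adjusted p = 0.183). Paneth markers summed to 1441 and 1050 FPKM against 855 and 2622, with 0 of 8 called, and their part in the Wnt3 value was not tested.

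Of the genes listed here as targets of β-catenin and TCF, 0 of 20 tested were called, 14 were higher and 1 lower without overlap, and the median was 0.22. The list also holds stem cell genes, and whether each gene is a direct target was not tested. Ccnd1, cyclin D1, was at 56.28 and 52.04 FPKM against 80.81 and 100.20 (log2 fold change 0.73, limma adjusted p = 0.0553, below 0.05 in 4 of 14 alternatives). Slc12a2, an ion cotransporter of crypt base cells, had a log2 fold change of 0.44 (limma adjusted p = 0.0811), close to that of Axin2. The stem cell marker list, of which all genes but Olfm4 are also in the target list, moved with it: 0 of 8 were called, 7 were higher and 0 lower without overlap, and the median was 0.23. The part of stem cell content in the target values was not tested.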

How the data were processed

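RNA of Lgr5-GFPhigh cells from 2 Lgr5-CREPTWT and 2 Lgr5-CREPTKO mice was analysed, grouped by sample titles. The authors deposited FPKM values, rounded to 2 decimals, after mapping reads to reference transcripts with Bowtie2 and quantifying genes with RSEM. Those methods name crypts and intestines, not the sorted cells. The submitters' processing notes also name HISAT and mm10. No counts were analysed here, so the count model of the study was replaced by limma 3.58.1 in R 4.3.3, with an intensity trend, on log2(FPKM + 0.5). The test took in genes whose mean over the 4 mice reached 0.5 FPKM, and fold changes are on that log2 scale. The procedure was tested on simulated data. Alternatives changed the pseudocount, filter, scaling, trend, replicate block and small RNA genes, and left out each mouse. A correction for transcript length, by loess within each library, was chosen after seeing the data.

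The genes and lists were chosen with earlier results of these data known. Named genes are the 10 genes, their paralogues, Rprd1b, markers, and from each list the called genes or, up to 3 in all, the largest log2 fold changes without overlap. Same-numbered mice are different animals. Coordinates and promoters are from RefSeq, GRCm38.p6, and transcript lengths from GENCODE vM21. The labels do not say whether mice were littermates.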

Additional observations from a re-analysis of the deposited data

How the results depend on the processing

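No tested gene of the 10 was called under any of the 14 alternatives, and 124 of 126 of their log2 fold changes kept their direction. Gsk3b turned, to -0.11 with the length correction and to -0.021 without control mouse 2, in a range of -0.021 to 0.10 over the mice left out. Changes of filter, trend, replicate block or small RNA genes left each of these fold changes exactly as in the main fit. Those settings could not turn a direction, so the count of directions kept is in part fixed in advance. With 2 mice per genotype, calls across all genes (337 lower, 52 higher, 144 past both thresholds) depended on the setting. Without the filter there were 0 lower, 0 higher and 0 past both thresholds, with 3570 at an unadjusted p below 0.05. Without the intensity trend there were 4 lower, 0 higher and 4 past both, and with the length correction 72, 8 and 51. Genes higher numbered 91 with a mean of at least 2 FPKM, 85 rescaled to the same sum and 109 without small RNA genes. Leaving out 1 mouse, with the lone mouse assumed to vary like the other genotype, gave 0 to 0 in each of these counts, with 1803 to 2379 at an unadjusted p below 0.05. In the 5 lists and paralogues, genes lower went from 1 to 0 without the filter, rescaled, after quantile normalization, without the trend, with the replicate block, with the length correction and without each mouse. Genes higher went from 0 to 2 with a mean of at least 2 FPKM, 2 rescaled, 1 after quantile normalization, 1 with the replicate block and 3 without small RNA genes. Leaving out each mouse gave -1.28 to 1.59 percentage points for the Gsk3b share and -4.51 to 1.48 for the Bcl9 share. Rescaling moved the median of all genes to 0.06. The cause of these changes was not tested.

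With the replicate block, 168 genes were lower and 15 higher. Deviations of same-numbered mice correlated at -0.0266 over 12621 genes, all from the same libraries. This value gave no sign of pairing by number and cannot exclude it. Only the relative value of 1 read was estimated, not the absolute depth, so no counting error is given.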
